A study of Mus musculus with 11 samples.

Results

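The effect of losing a single copy of Inpp5d was estimated across genes in microglia sorted from mouse brains with amyloid deposition. All 11 libraries of the series entered the estimate, 6 labelled Inpp5d+/- and 5 Inpp5d+/+, chosen by the genotype label alone. Tyrobp genotype was the second term of the model. The Inpp5d coefficient is therefore a log2 difference, heterozygote against wild type, that is assumed to be shared by mice with and without Tyrobp. With Tyrobp present, 3 Inpp5d+/-;NLGF libraries were set against 3 NLGF libraries. With Tyrobp absent, 3 Tyrobp-/-;Inpp5d+/-;NLGF libraries, called compound here, were set against 2 Tyrobp-/-;NLGF libraries. Every mouse carried the NLGF form of App, a knock-in of the amyloid precursor gene that gives plaques, so no group was free of the model allele. The mice were of the C57BL/6 strain and aged 9 to 10 months, and live brain cells positive for CD11b and CD45 were collected by flow cytometry. How the Inpp5d and Tyrobp alleles were made is not given in the sources used here, and every Inpp5d mutant library was heterozygous.

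Inpp5d encodes SHIP1, a lipid phosphatase of blood and myeloid cells that removes the 5-phosphate from PIP3, the product of PI3-kinase that recruits AKT and other kinases to the membrane. SHIP1 docks on inhibitory receptors and on adaptors, and it has been placed downstream of DAP12, the product of Tyrobp, through which the lipid receptor TREM2 signals. TREM2 and DAP12 are needed for plaque-associated microglia to take up the disease-associated state, called DAM, in which lipid and lysosomal genes are raised and homeostatic genes are lowered.

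Library totals ran from 29490567 to 66637052 counts and 20203 to 22662 genes were detected per library. The sorted cells carried the markers of microglia, with Tmem119 between 3040 and 5669 CPM (read counts scaled to library size) in all 11 libraries. The summed level of 12 neutrophil markers ran from 0.721 to 19188 CPM in Inpp5d+/+ libraries and from 54.7 to 9939 CPM in Inpp5d+/- libraries. It was highest in Tyrobp-/-;NLGF replicate 1 and compound replicate 2. Every Tyrobp-/- library, at 256 CPM or more, lay above every library with Tyrobp. So it was for 16 monocyte markers, at 132 to 2101 CPM in Tyrobp-/- libraries. With Tyrobp absent, the heterozygote difference in mean log2 level was -2.36 for neutrophil markers, with overlap, and -1.39 for monocyte markers. With Tyrobp present these differences were 0.67 and 0.25. Compound replicate 1 lay far from the rest in multidimensional scaling (3.85 on dimension 2 against -1.08 to 0.237) and had the highest summed level of 12 neuronal markers (35.8 CPM against 0.518 to 8.26). Of 9 tested neuronal markers, 3 (33.3%) had a positive Inpp5d coefficient at an unadjusted p below 0.05, against 2.45% of all tested genes. These 3 had mean levels below 1 CPM. Beyond a fit with neutrophil markers as a covariate and fits without those libraries, the part of these cells in the results below was not tested. In sorted bulk RNA, fewer cells of a kind and less RNA per cell cannot be told apart.

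The Inpp5d transcript itself was lower in the heterozygotes. NLGF libraries held 436.1, 204.8 and 313.0 CPM of Inpp5d and Inpp5d+/-;NLGF libraries held 279.8, 219.0 and 190.6 CPM. Tyrobp-/-;NLGF libraries held 449.2 and 447.4 CPM and compound libraries 189.8, 259.9 and 259.5 CPM. The groups did not overlap where Tyrobp was absent, whereas NLGF replicate 2 lay below 2 of the 3 Inpp5d+/-;NLGF libraries. Averaged over the backgrounds, the difference in log2(CPM + 1) was -0.68, a ratio of 0.626. A two-sided exact permutation test of genotype labels within backgrounds gave p = 0.025 over 200 arrangements, of which the smallest possible p was 0.005. With a library left out the ratio ran from 0.567 to 0.685 and the exact permutation p from 0.01 to 0.07, with the largest p without NLGF replicate 1 or Inpp5d+/-;NLGF replicate 3. In the fit across genes the coefficient was -0.67 (SE 0.19, 95% interval -1.09 to -0.25), with -0.47 where Tyrobp was present and -0.92 where it was absent.

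Across 20390 tested genes, edgeR's quasi-likelihood test with Benjamini-Hochberg adjustment at 0.05 called 0 genes (0%) for the Inpp5d coefficient. The smallest adjusted p was 0.995. Unadjusted p was below 0.05 for 1005 genes (4.93%), of which 500 (2.45%) had a positive coefficient and 505 (2.48%) a negative one. The limma-voom test with quality weights also called 0 genes (0%), with 1098 (5.38%) below an unadjusted p of 0.05. DESeq2 called 10 genes (0.049%), with 1148 (5.63%) below an unadjusted p of 0.05. Inpp5d was not among the genes called by any of these tests.

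**Figure D1:**
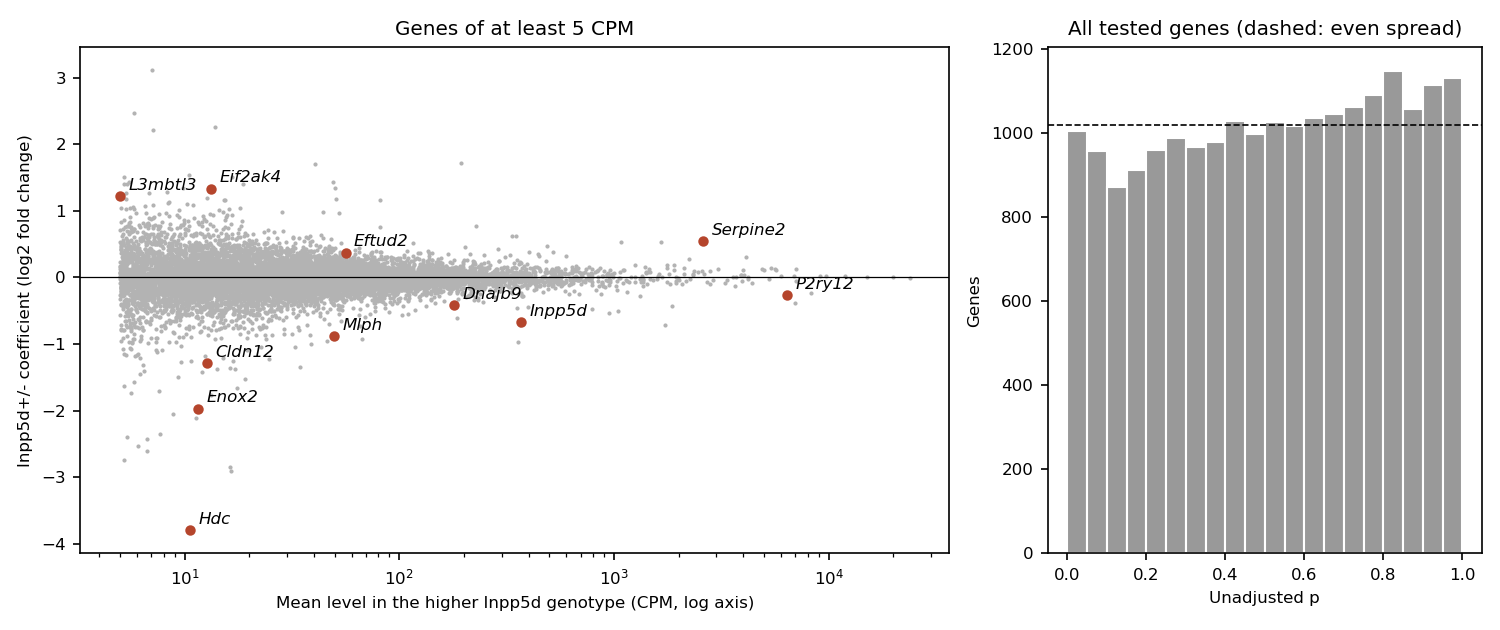
Left, the Inpp5d+/- coefficient (log2 fold change) of each tested gene against its mean level in the higher Inpp5d genotype (CPM, log axis). Shown are 10722 genes of at least 5 CPM, with selected genes labelled in red. Right, number of tested genes in each bin of unadjusted p over 20390 genes, with a dashed line at an even spread: the lowest bin holds 1005 genes, close to that line.

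The design bounded the size of a shared effect for most well-measured genes. Among 10722 genes with a mean of at least 5 CPM in either Inpp5d genotype, the median coefficient was -0.01 and the median SE 0.18. For 9213 of them (85.9%) the 95% interval lay within a 2-fold change in either direction, and for 6032 it lay within 1.5-fold. Over all tested genes, 10554 (51.8%) had an interval within 2-fold. Trem2, the receptor upstream of DAP12, had a coefficient of -0.03 (95% interval -0.22 to 0.16). App had one of -0.06 (95% interval -0.37 to 0.26). Tyrobp had one of -0.28 (95% interval -0.78 to 0.22), with levels of 1952 to 2560 CPM where the gene was intact and 3.22 to 8.94 CPM in the Tyrobp-/- libraries.

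The effects within the Tyrobp backgrounds, which share no library, were nearly uncorrelated across genes. Over the 10722 genes of at least 5 CPM, the log2 difference with Tyrobp present and that with Tyrobp absent had a Pearson r of 0.09 and a Spearman rho of 0.05, and 5462 genes (50.9%) had the same sign. Genes are not independent replicates, and both effects came from a single fit with a common scaling and spread. The SD over genes was 0.40 with Tyrobp present, 0.42 with Tyrobp absent and 0.28 for the additive coefficient. For the difference between the backgrounds, the interaction, edgeR called 0 genes (0%), with 958 (4.7%) below an unadjusted p of 0.05, and DESeq2 called 36. With Tyrobp present edgeR called 0 genes (0%), with 951 (4.66%) below an unadjusted p of 0.05, and DESeq2 called 29. With Tyrobp absent edgeR called 2 (0.00981%), with 831 (4.08%) below an unadjusted p of 0.05, and DESeq2 called 50.

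Those 2 genes, named because the count was so small, were Mamdc2 and Fzd9. Mamdc2, which encodes a secreted proteoglycan, stood at 0.0996 and 0.074 CPM in Tyrobp-/-;NLGF and at 2.07, 6.51 and 5.19 CPM in the compound libraries. Its log2 difference there was 5.69 (SE 0.59, edgeR adjusted p = 0.0441), against -0.08 with Tyrobp present, where all 6 libraries held 70.2 to 96.6 CPM. Fzd9, a Wnt receptor, was at 0 in both Tyrobp-/-;NLGF libraries and at 2.39, 2.09 and 1.33 CPM in the compound libraries. The compound mean of 1.93 CPM was at least 32.5-fold above a floor of 3 counts in the Tyrobp-/-;NLGF libraries. With Tyrobp present the log2 difference of Fzd9 was -0.77. Neither gene was called for the interaction by edgeR (adjusted p = 0.0779 for both) or for the additive coefficient, at 1.35 for Mamdc2 and 1.31 for Fzd9. With any single library left out, 0 or 1 gene was called there, and 0 were called without the 2 libraries with most S100a8, Tyrobp-/-;NLGF replicate 1 and compound replicate 2.

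Genes were also counted by whether the Inpp5d+/- libraries lay apart from the Inpp5d+/+ libraries in both backgrounds in the same direction. Of all tested genes, 70 (0.343%) did so upwards and 79 (0.387%) downwards. Among the genes of at least 5 CPM there were 42 (0.392%) and 50 (0.466%). The 10 higher and 10 lower named genes with the smallest p, except Secisbp2, belonged to this set. They were chosen on the same libraries, so their separation is a description and no further support, and none passed adjustment in edgeR (adjusted p = 0.995 for each).

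Serpine2 had the smallest p among genes with a positive coefficient. It encodes protease nexin-1, a secreted serine protease inhibitor, and belongs to the later DAM genes. NLGF libraries held 2919, 2646 and 2391 CPM and Inpp5d+/-;NLGF libraries 3305, 3373 and 3309 CPM. Tyrobp-/-;NLGF libraries held 1073 and 1089 CPM and compound libraries 1751, 1854 and 2079 CPM. Every Inpp5d+/- library was above every Inpp5d+/+ library of its background, and the Tyrobp-/- libraries of either Inpp5d genotype were below all others. The coefficient was 0.54 (SE 0.10) at an unadjusted edgeR p of 0.000167, with 0.33 where Tyrobp was present and 0.81 where it was absent. The interaction had an unadjusted edgeR p of 0.00355 and was not called. Serpine2 was called by DESeq2 (adjusted p = 0.000624), whereas its adjusted p ran from 0.0991 to 1 over the other settings tried.

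Enox2 and Mlph had the smallest p among genes with a negative coefficient. Enox2, which encodes a surface hydroquinone oxidase, stood at 11.8, 6.11 and 8.35 CPM in NLGF and at 1.08, 1.61 and 1.81 CPM in Inpp5d+/-;NLGF. In the Tyrobp-/-;NLGF libraries it stood at 15 and 16.5 CPM and in the compound libraries at 4.52, 5.56 and 9.95 CPM. The genotypes did not overlap within either background, and the coefficient was -1.97 (SE 0.34) at an unadjusted edgeR p of 0.000141. By DESeq2 the adjusted p of Enox2 was 0.000258, and over the other settings it ran from 0.2 to 1. Mlph encodes melanophilin, which links Rab27a vesicles to myosin Va. It stood at 45.6, 52.8 and 44.5 CPM in NLGF, at 17.9, 22.8 and 26.4 CPM in Inpp5d+/-;NLGF, at 46.4 and 58.5 CPM in Tyrobp-/-;NLGF and at 26.2, 35.1 and 41.5 CPM in the compound libraries. Again the genotypes lay apart in both backgrounds, with a coefficient of -0.88 (SE 0.16) at an unadjusted edgeR p of 0.000251. DESeq2 called Mlph at an adjusted p of 0.00199, against 0.631 to 1 elsewhere.

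**Figure D2:**
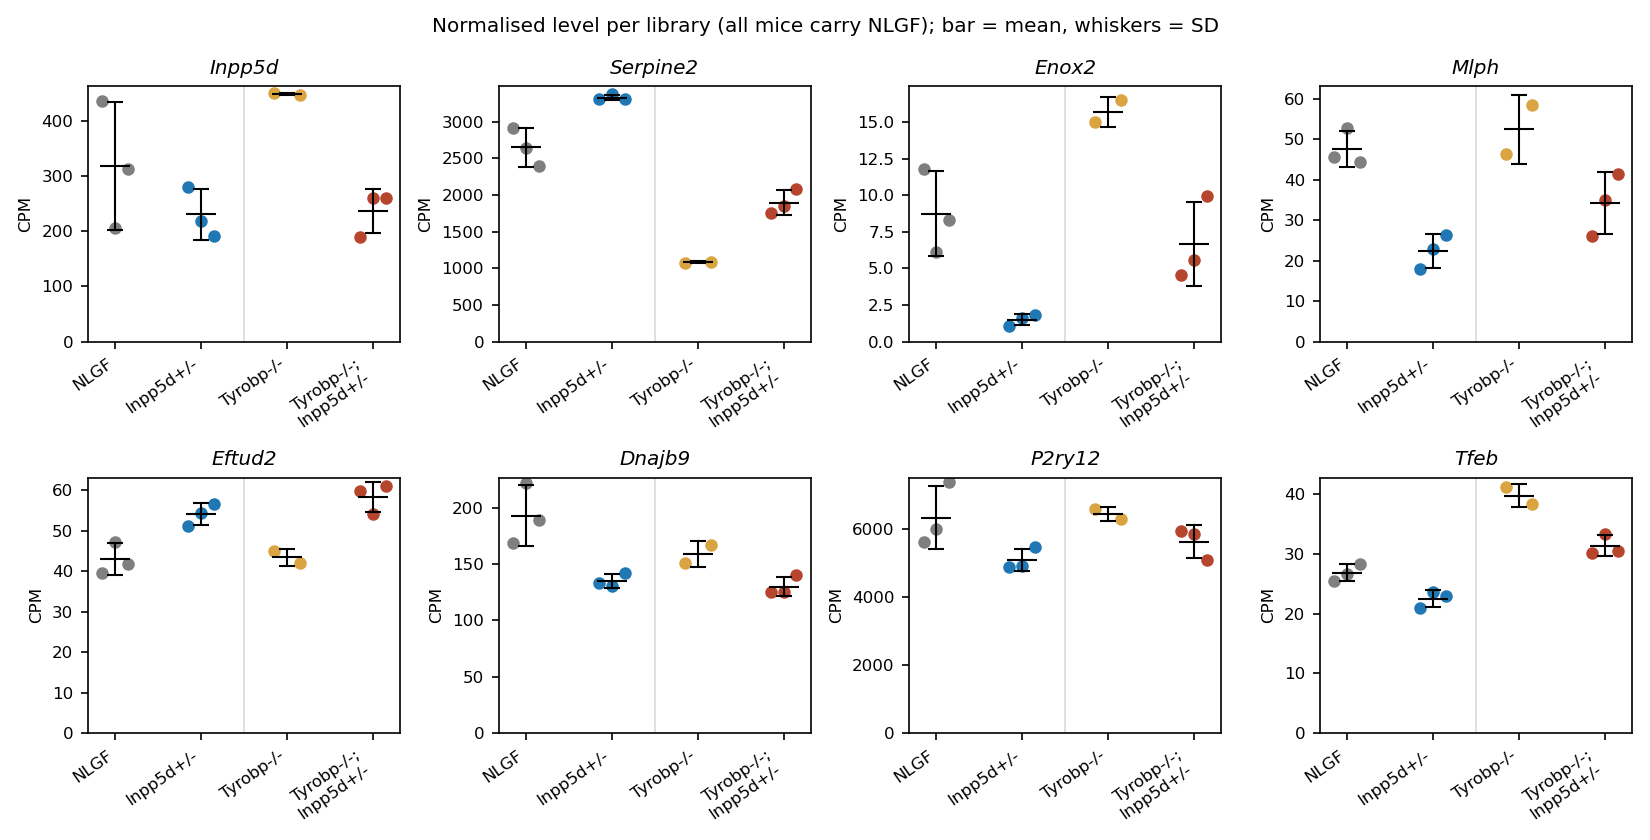
Normalised level (CPM, from 0) of 8 genes in each of the 11 libraries by genotype, with points for libraries, a bar for the mean and whiskers for the SD, and a grey line between the Tyrobp backgrounds. In all panels but that of Inpp5d, the Inpp5d+/- points lie apart from the Inpp5d+/+ points on both sides of that line.

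The other genes of smallest p with a positive coefficient had various known functions. Eftud2, a GTPase of the spliceosome, was at 39.7, 47.3 and 41.9 CPM in NLGF against 51.3, 54.3 and 56.6 CPM in Inpp5d+/-;NLGF. It was at 44.9 and 42 CPM in Tyrobp-/-;NLGF against 59.8, 54.1 and 61.1 CPM in the compound libraries. The coefficient of Eftud2 was nearly the same in both backgrounds, at 0.33 and 0.42, and 0.37 (SE 0.08) overall. Cdc27, a subunit of the anaphase-promoting complex, had a coefficient of 0.45, and Slc11a2, the iron transporter DMT1, one of 0.38. Naaa, a lysosomal amidase that breaks down N-acylethanolamines, had one of 0.39. Eif2ak4, the amino acid sensing kinase GCN2, had a coefficient of 1.33 with levels of 1.64 to 8.3 CPM in the Inpp5d+/+ libraries and 9.66 to 15.7 CPM in the Inpp5d+/- libraries. The histone reader gene L3mbtl3 had a coefficient of 1.22, the nuclear pore gene Nup37 one of 0.76 and Tmco4 one of 1.02. These genes lay apart in both backgrounds. Secisbp2, needed to make selenoproteins, had a coefficient of 1.04 and overlapped where Tyrobp was present, with 14.6 CPM in NLGF replicate 1 and 14 CPM in Inpp5d+/-;NLGF replicate 3.

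With a negative coefficient, Dnajb9 came after Enox2 and Mlph by p, leaving aside the pseudogene Srsf3-ps described below. It encodes ERdj4, a co-chaperone of the endoplasmic reticulum that acts in the unfolded protein response. NLGF libraries held 169, 222 and 189 CPM of it and Inpp5d+/-;NLGF libraries 133, 131 and 142 CPM. Tyrobp-/-;NLGF libraries held 151 and 167 CPM and compound libraries 125, 125 and 140 CPM. The coefficient of Dnajb9 was -0.42 (SE 0.09), with -0.51 and -0.30 in the 2 backgrounds. Wtap, a subunit of the RNA m6A methyltransferase complex, had one of -0.37, with -0.37 and -0.38 in the backgrounds. The zinc finger genes Zfp758 and Zfp120 had coefficients of -0.92 and -0.38, the claudin gene Cldn12 one of -1.28 and the mitochondrial carrier family gene Slc25a46 one of -0.60. Umad1 stood at -0.50 and Scoc, a coiled-coil protein gene of the Golgi, at -0.28. All 10 lower genes named here lay apart in both backgrounds, and all had an edgeR adjusted p of 0.995.

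By fold rather than p, the separated genes of at least 5 CPM added Flt1, Oas1g and Dusp8 upwards and Hdc and Ltb downwards. Flt1, a VEGF receptor, was at 7.85, 6.74 and 6.08 CPM in NLGF and at 9.04, 15.8 and 15 CPM in Inpp5d+/-;NLGF. It was at 0 in both Tyrobp-/-;NLGF libraries and at 0.0377, 0.143 and 2.61 CPM in the compound libraries, so that the separation there rested on few reads. Oas1g, an interferon-induced synthetase gene, had a coefficient of 0.84, and Dusp8, a MAP kinase phosphatase gene, one of 0.78. Hdc, which makes histamine, was at 0.0962, 2.7 and 0.939 CPM in NLGF and at 0 in all 3 Inpp5d+/-;NLGF libraries. It stood at 34.8 and 14.3 CPM in Tyrobp-/-;NLGF and at 0.0188, 14.2 and 1.45 CPM in the compound libraries, and was thus highest in the libraries with most neutrophil marker RNA. Ltb, lymphotoxin beta, had a coefficient of -0.88.

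Of the 10 genes that DESeq2 called, 8 lay apart in both backgrounds, against 149 (0.731%) of all tested genes. The 10 were called on these same libraries, so their separation is a description and no further support. Besides Enox2, Serpine2, Mlph, Zfp758, Dnajb9 and Eftud2, the genes that lay apart were Srsf3-ps and Ptgdr2. Ptgdr2, a prostaglandin D2 receptor gene, was at 0.0318 to 0.259 CPM in Inpp5d+/+ and 0.362 to 2.09 CPM in Inpp5d+/- libraries. It overlaps Ccdc86 on the other strand, which was far more abundant, and counts without strand cannot tell them apart. The remaining 2 also overlap a gene on the other strand. Clec2i overlaps BC035044, which was far more abundant, and Gm15726, at a mean of 27.8 CPM, overlaps Mid1, at 35 CPM. Clec2i was at 3.09, 0 and 3.5 CPM in NLGF and at 0 in all Inpp5d+/-;NLGF libraries, but at 1.31 to 4.88 CPM in the 5 Tyrobp-/- libraries, where the genotypes overlapped. Srsf3-ps is a pseudogene of Srsf3, whose reads the counting could have split.

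The lipid phosphatases and kinases around SHIP1 gave counts at or under the background. Of 23 phosphoinositide phosphatase genes, 1 (4.35%) was below an unadjusted p of 0.05, against 4.93% of all tested genes. It had a negative coefficient and was Inpp5d itself. Inppl1, which encodes the related phosphatase SHIP2, was at 22.5, 20.3 and 24.2 CPM in NLGF and at 35.3, 23 and 28.7 CPM in Inpp5d+/-;NLGF. It was at 18.2 and 18.4 CPM in Tyrobp-/-;NLGF and at 19.7, 22.2 and 19.7 CPM in the compound libraries. The genotypes overlapped where Tyrobp was present and not where it was absent, and the coefficient of Inppl1 was 0.28 (95% interval 0 to 0.57, edgeR unadjusted p = 0.0515). None of 15 PI3-kinase genes had an unadjusted p below 0.05, the smallest p being that of the catalytic subunit gene Pik3cb at -0.21.

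Among 26 genes of proximal TREM2-DAP12 signalling, 0 had an unadjusted edgeR p below 0.05 and the median coefficient was 0.01. The kinase genes Lyn and Fyn had the smallest p, with coefficients of 0.12 and -0.36. Syk, the kinase that binds phosphorylated DAP12, had one of -0.08 (95% interval -0.51 to 0.36). Of 27 AKT, mTOR and FOXO genes, 2 (7.41%) were below an unadjusted p of 0.05, both negative, against 4.93% of all tested genes in either direction. Akt2 was at 27.3, 49.8 and 39.6 CPM in NLGF, at 30.7, 26.3 and 19.2 CPM in Inpp5d+/-;NLGF, at 39.5 and 57.1 CPM in Tyrobp-/-;NLGF and at 36.7, 35.3 and 34.2 CPM in the compound libraries. Its coefficient was -0.54 (SE 0.18), with overlap between genotypes where Tyrobp was present. Phlpp1, a phosphatase that acts on AKT, had one of -1.47 at levels of 0.245 to 4 CPM.

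Of 25 SHIP1 docking partners and inhibitory receptors, 3 (12%) were below an unadjusted p of 0.05 and all were negative, against 2.48% of all tested genes. Dok3, an adaptor that recruits SHIP1, had a coefficient of -0.47. Cd200r1, the receptor for CD200, had one of -0.50 and Cd300a, an inhibitory receptor of myeloid cells, one of -0.20. Dok3 was at 12.1, 25.5 and 19.3 CPM in NLGF and at 12, 16.9 and 14.4 CPM in Inpp5d+/-;NLGF. It was at 54.6 and 47.9 CPM in Tyrobp-/-;NLGF and at 32.1, 39.4 and 32.4 CPM in the compound libraries. For Dok3 the Inpp5d genotypes overlapped with Tyrobp present and lay apart with Tyrobp absent. The median coefficient of the list was -0.01, and the count was 0 without the 2 libraries with most S100a8. Leaving out each library in turn gave counts from 1 to 3, with 1 without Inpp5d+/-;NLGF replicate 2, without Inpp5d+/-;NLGF replicate 3 and, in the positive direction, without Tyrobp-/-;NLGF replicate 1.

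The DAM genes of the second, TREM2-dependent stage were the functional list with the largest share of members below an unadjusted p of 0.05. Of 25 members, 7 (28%) had a positive coefficient at an unadjusted p below 0.05 and none a negative one, against 2.45% and 2.48% of all tested genes. With neutrophil markers as a covariate, 5 (20%) did so. A positive coefficient was found for 21 members (84%), against 49.4% of all tested genes. The list's median coefficient was 0.14, against 0.00 over all genes, with 0.07 where Tyrobp was present and 0.30 where it was absent. No member passed adjustment in edgeR. The list was drawn up with earlier results of these data known, its members vary together, and it shares Ccl3, Ccl4 and Ccl6 with the chemokine list.

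The mean log2 level of the stage 2 list, relative to NLGF, showed where that shift lay. It was 0.06, 0.00 and -0.06 in the NLGF libraries and -0.02, 0.08 and 0.17 in Inpp5d+/-;NLGF, which overlapped. It was -1.95 and -2.11 in Tyrobp-/-;NLGF and -1.97, -1.71 and -1.41 in the compound libraries, where compound replicate 1 lay between the 2 Tyrobp-/-;NLGF libraries. Compound replicate 3 was highest of the Tyrobp-/- libraries and far below every library with Tyrobp. The difference of means was 0.08 with Tyrobp present and 0.33 with Tyrobp absent.

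**Figure D3:**
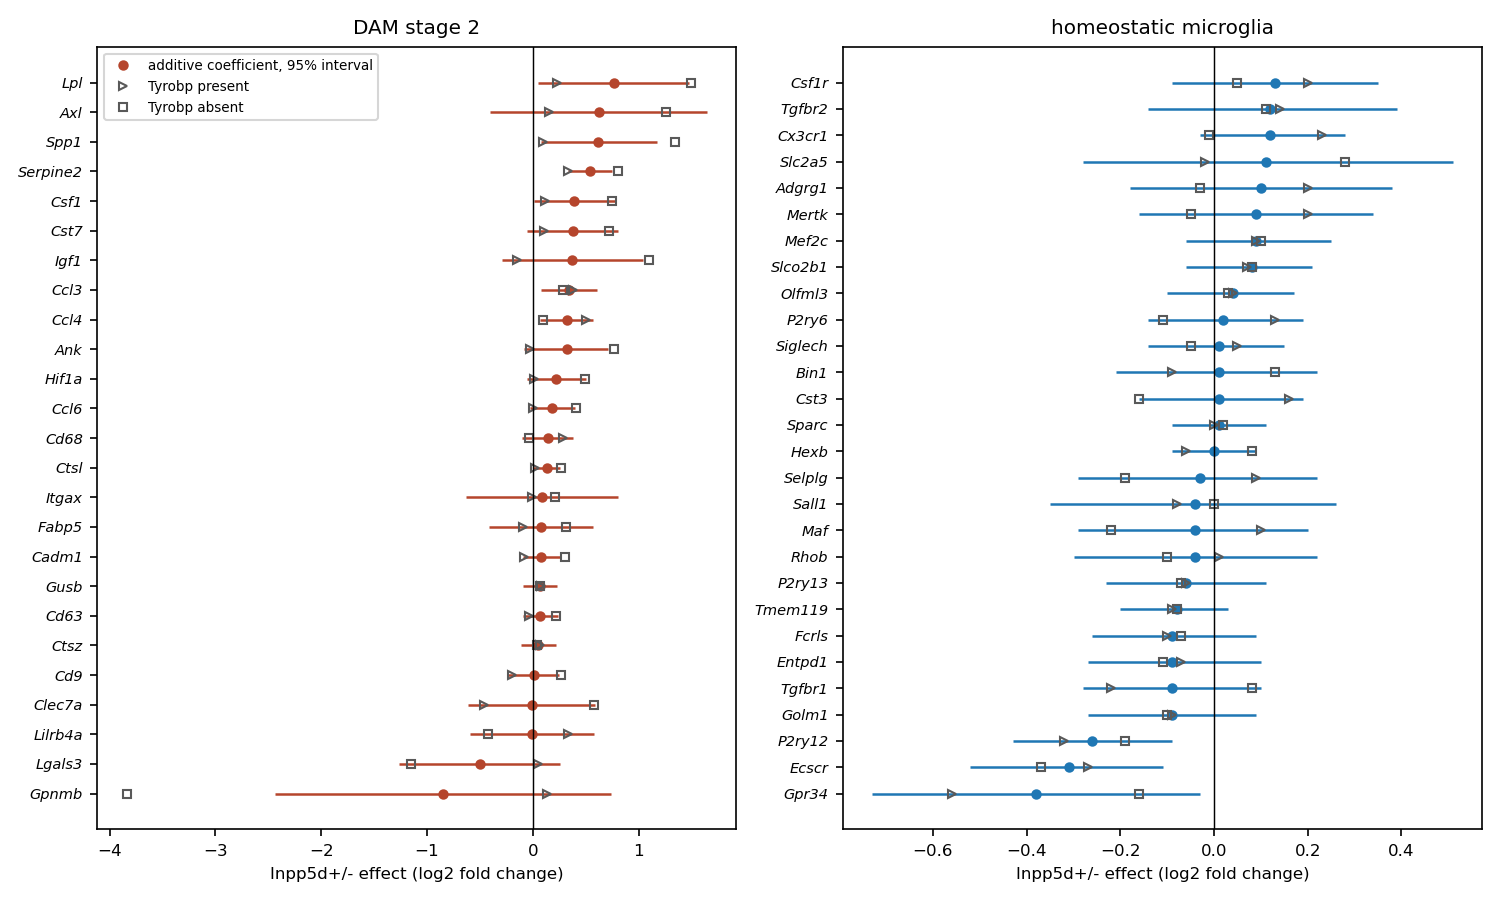
Inpp5d+/- effect (log2 fold change) for each tested member of the DAM stage 2 list (left) and of the homeostatic microglia list (right, narrower axis), with filled points and lines for the additive coefficient and its 95% interval and open symbols for the effect within each Tyrobp background. Most stage 2 members lie above 0 with the open squares (Tyrobp absent) to the right of the triangles, while homeostatic members centre on 0.

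Besides Serpine2, the stage 2 members below an unadjusted p of 0.05 were Ccl4, Ccl3, Spp1, Lpl, Ctsl and Csf1. Those after Ccl3, and Cst7 below, were chosen after their values were seen. Spp1, which encodes osteopontin, was at 646, 502 and 499 CPM in NLGF and at 548, 613 and 601 CPM in Inpp5d+/-;NLGF. It was at 11.5 and 15.9 CPM in Tyrobp-/-;NLGF and at 25.5, 34.5 and 44.1 CPM in the compound libraries. The genotypes overlapped with Tyrobp present (log2 difference 0.10) and lay apart with Tyrobp absent (1.34), and the unadjusted edgeR p of the interaction was 0.00221. The additive coefficient of 0.62 for Spp1 is an average of these unlike values.

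Lpl, lipoprotein lipase, showed a like arrangement. Its levels were 384, 299 and 323 CPM in NLGF and 389, 325 and 464 CPM in Inpp5d+/-;NLGF, which overlapped. They were 25.2 and 19.3 CPM in Tyrobp-/-;NLGF and 35.4, 48 and 105 CPM in the compound libraries. The log2 difference of Lpl was 0.23 with Tyrobp present and 1.50 with Tyrobp absent, for a coefficient of 0.77. Csf1, a growth factor for microglia, had differences of 0.12 and 0.75, and the cathepsin gene Ctsl had 0.02 and 0.27. Cst7, a cystatin and a much used DAM marker, had 0.11 and 0.72, with a coefficient of 0.38 at an unadjusted edgeR p of 0.0774. Axl and Igf1 had coefficients of 0.63 and 0.37 with 95% intervals that held 0. Lgals3, the galectin-3 gene, and Gpnmb had negative coefficients of -0.50 and -0.85, and their 95% intervals held 0 as well. Lgals3 was at 179 and 71.1 CPM in Tyrobp-/-;NLGF and at 30.1, 92.4 and 46.3 CPM in the compound libraries. Its log2 difference was 0.05 where Tyrobp was present and -1.15 where it was absent. Across the Tyrobp-/- libraries its order was that of the summed neutrophil markers, highest in Tyrobp-/-;NLGF replicate 1 and lowest in compound replicate 1. Beyond the fits named above, the part of neutrophils in this was not tested. Gpnmb was at 39.4 to 60.7 CPM in all libraries with Tyrobp present and at 0.0185 to 1.45 CPM in those without it. The value of 1.45 CPM was that of Tyrobp-/-;NLGF replicate 1, and without that library the coefficient of Gpnmb was 0.18. Clec7a, the dectin-1 gene, had -0.46 with Tyrobp present and 0.58 with Tyrobp absent, which cancelled to -0.01.

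The count of stage 2 genes depended on single libraries. It was 3 without Tyrobp-/-;NLGF replicate 1, 3 without Tyrobp-/-;NLGF replicate 2 and 3 without the 2 libraries with most S100a8. It was 4 without NLGF replicate 2 or without Inpp5d+/-;NLGF replicate 3, and 4 with limma-voom. It was 10 without Inpp5d+/-;NLGF replicate 1. With a coefficient for each group and the effect averaged over the backgrounds it was 12, of which 11 were positive. With each library left out in turn, 19 to 23 of the 25 members had a positive coefficient. The list's median then ran from 0.11 to 0.19. Leaving the Tyrobp term out gave a count of 1, with 9 members positive and a median of -0.03. Tyrobp-/- libraries made up 3 of the 6 Inpp5d+/- and 2 of the 5 Inpp5d+/+ libraries.

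Homeostatic microglial genes centred on 0 with narrow intervals. The median coefficient of 28 tested members was 0.00, all 28 had a 95% interval within a 2-fold change, and 27 had one within 1.5-fold. Tmem119 had a coefficient of -0.08 and Cx3cr1, the fractalkine receptor, one of 0.12. The 3 members (10.7%) below an unadjusted p of 0.05 were all negative, against 2.48% of all tested genes, and were P2ry12, Ecscr and Gpr34.

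P2ry12, the purinergic receptor through which microglia sense ADP, was at 5640, 6011 and 7399 CPM in NLGF and at 4880, 4937 and 5479 CPM in Inpp5d+/-;NLGF. It was at 6589 and 6299 CPM in Tyrobp-/-;NLGF and at 5961, 5870 and 5101 CPM in the compound libraries. The genotypes of P2ry12 lay apart in both backgrounds, at -0.32 and -0.19, with a coefficient of -0.26 (SE 0.08) at an unadjusted edgeR p of 0.00547. Ecscr had a coefficient of -0.31, with overlap where Tyrobp was present. Gpr34, a lysophosphatidylserine receptor, had one of -0.38, with overlap in both backgrounds. Each of these 3 genes overlaps another gene on the other strand, and for P2ry12 and Gpr34 those partners, Med12l and Cask, were at a mean of 83.6 and 61.1 CPM. For Ecscr, at a mean of 97.4 CPM, the partner 1700066B19Rik was at 28.1 CPM.

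Chemokine genes were the other list with a high share. Of 15 tested, 4 (26.7%) had a positive coefficient at an unadjusted p below 0.05, against 2.45% of all tested genes. A positive coefficient was found for 13 (86.7%), against 49.4%, and the median was 0.34, against 0.00. With each library left out, the count below an unadjusted p of 0.05 ran from 2, without Tyrobp-/-;NLGF replicate 2, to 5. It was 3 without the 2 libraries with most S100a8. Ccl4 was at 353, 327 and 267 CPM in NLGF, at 484, 387 and 473 CPM in Inpp5d+/-;NLGF, at 371 and 463 CPM in Tyrobp-/-;NLGF and at 451, 456 and 431 CPM in the compound libraries. Its genotypes lay apart with Tyrobp present (0.50) and overlapped with Tyrobp absent (0.10). Ccl3 was at 239, 227 and 246 CPM in NLGF against 278, 239 and 411 CPM in Inpp5d+/-;NLGF, and at 153 and 151 CPM in Tyrobp-/-;NLGF against 179, 186 and 192 CPM in the compound libraries. For Ccl3 and for Ccl12 the separation was the reverse, present where Tyrobp was absent only, and their coefficients were 0.34 and 0.45. Ccl24, named after its values were seen, had a coefficient of 1.03 at 2.13 to 8.65 CPM.

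Chemokine and immediate early transcripts can rise while cells are isolated, so both lists are given together. Of 30 immediate early and dissociation genes, 1 (3.33%) was below an unadjusted p of 0.05, against 4.93% of all tested genes. It was Zfp36, an mRNA decay factor, at 0.47. The median of the list was 0.14, with 0.34 where Tyrobp was present and 0.05 where it was absent. Fos had a log2 difference of 0.99 with Tyrobp present and 0.00 with Tyrobp absent, and an additive 95% interval of -0.22 to 1.30. The part of cell handling in the chemokine values was not tested.

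**Figure D4:**
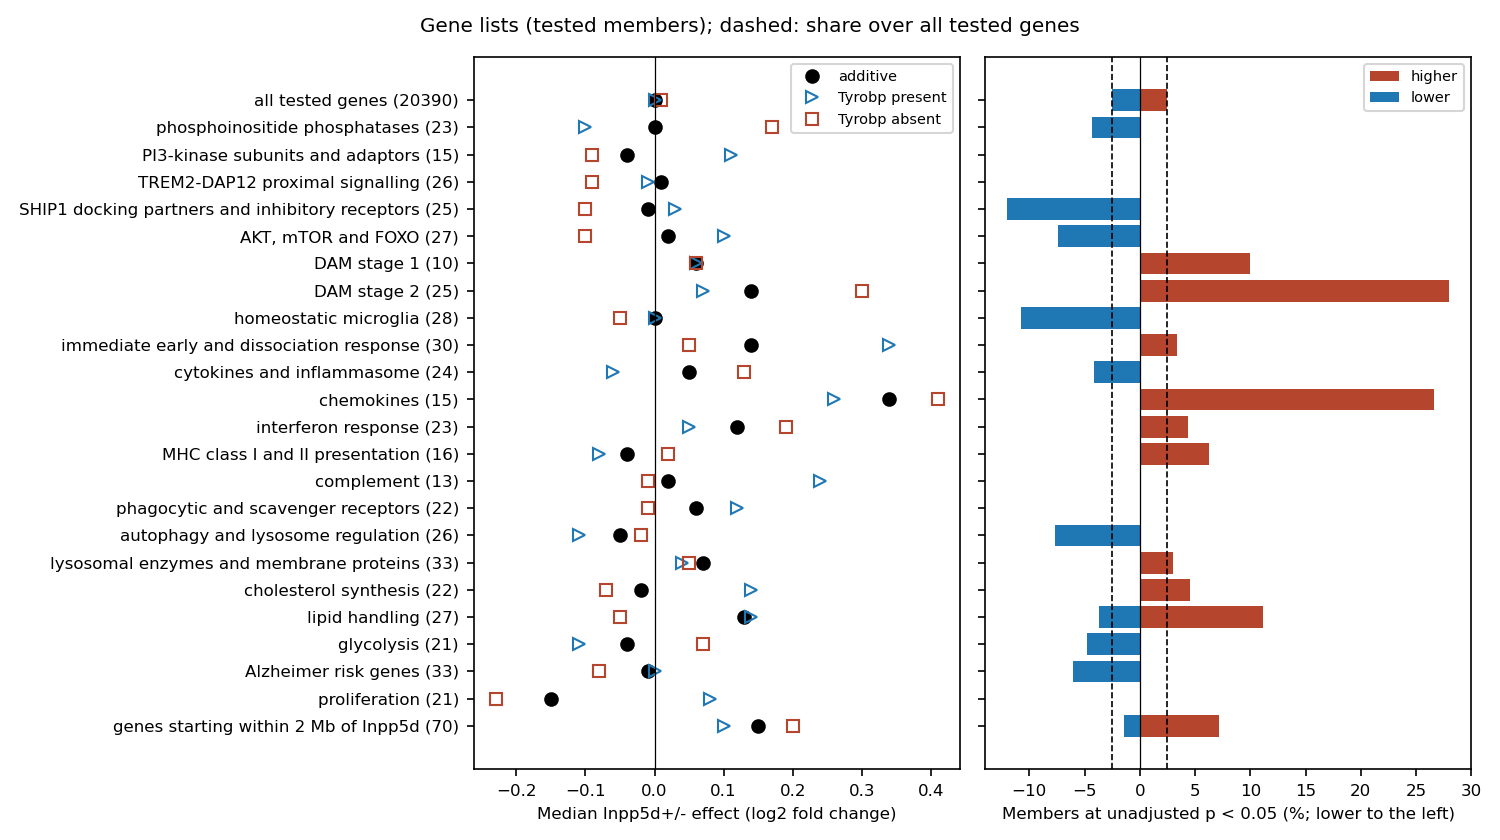
For functional gene lists, the genes near Inpp5d and all tested genes, with the number of tested members in brackets: left, the median Inpp5d+/- effect (log2 fold change) in the additive model and in each Tyrobp background; right, the share of members (%) at an unadjusted p below 0.05, higher to the right and lower to the left, with dashed lines at the share over all tested genes (2.45% higher, 2.48% lower). Among the lists plotted, which leave out the markers of other cell types, the DAM stage 2 list (28%) and the chemokine list (26.7%) have the longest bars.

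Other functions of microglia gave counts near the background of 4.93%. Of 23 interferon response genes 1 was below an unadjusted p of 0.05, Ifi44. Of 16 antigen presentation genes it was B2m, the light chain of MHC class I, with a coefficient of 0.31. None of 13 complement genes and none of 22 phagocytic and scavenger receptor genes were below it. Of 33 lysosomal genes 1 was, Ctsl. A positive coefficient was found for 26 of them (78.8%), against 49.4% of all tested genes, with a median of 0.07. Of 21 proliferation genes 0 were below an unadjusted p of 0.05. The Alzheimer risk list gave 2 of 33, Inpp5d itself and Ms4a6b at -0.34.

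Autophagy regulators and lipid genes were described by their members of smallest p. Tfeb, the transcription factor that drives lysosomal and autophagy genes, was at 25.5, 26.6 and 28.4 CPM in NLGF and at 20.9, 23.6 and 22.9 CPM in Inpp5d+/-;NLGF. It was at 41.2 and 38.4 CPM in Tyrobp-/-;NLGF and at 30.2, 33.4 and 30.5 CPM in the compound libraries. Every Inpp5d+/- library was below every Inpp5d+/+ library of its background, and the coefficient of Tfeb was -0.30 (SE 0.09) at an unadjusted edgeR p of 0.00671. Gabarapl1, which binds autophagosome membranes, had a coefficient of -0.32 and overlapped where Tyrobp was absent. These were the 2 of 26 autophagy genes (7.69%) below an unadjusted p of 0.05, against 4.93% of all tested genes in either direction. Of 27 lipid handling genes 3 were positive and 1 negative below it, 14.8% in all against 4.93% of all tested genes. Fasn, fatty acid synthase, had a coefficient of 0.71, with 15.4, 7.01 and 7.32 CPM in NLGF against 14.6, 17.2 and 14.6 CPM in Inpp5d+/-;NLGF. In the Tyrobp-/- libraries Fasn was at 6.45 and 8.08 CPM against 14.8, 10.9 and 12.4 CPM in the compound libraries, without overlap. Plin2, which coats lipid droplets, had a coefficient of -0.32. Lss, a late enzyme of cholesterol synthesis, had one of 0.73. It was the 1 of 22 such genes (4.55%) below an unadjusted p of 0.05, a share under that of all tested genes.

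The genes around Inpp5d were described as well, because a targeted allele and its neighbours are inherited together. Inpp5d lies on chromosome 1 at 87620312 to 87720507 in the deposited coordinates (GRCm38). Serpine2 (79794197 to 79861180) starts 7.83 Mb before it and Mlph (90915085 to 90951142) 3.29 Mb after it, so both are on the chromosome that carries the targeted gene. Of 193 other tested genes within 10 Mb, 17 (8.81%) were below an unadjusted p of 0.05, 8 positive and 9 negative, against 4.93% of all tested genes. This band is wider than the 2 Mb used to name genes, and its count includes Serpine2 and Mlph. By distance the share was 8.57% of 70 genes within 2 Mb, 3.7% of 54 from 2 to 5 Mb and 13% of 69 from 5 to 10 Mb. It was 6.06% of 99 from 10 to 20 Mb, 5% of 200 from 20 to 40 Mb and 4.12% of 849 beyond 40 Mb. Chromosome 1 as a whole stood at 5.14%, within the 3.65% to 7.6% of the chromosomes, of which X was highest.

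**Figure D5:**
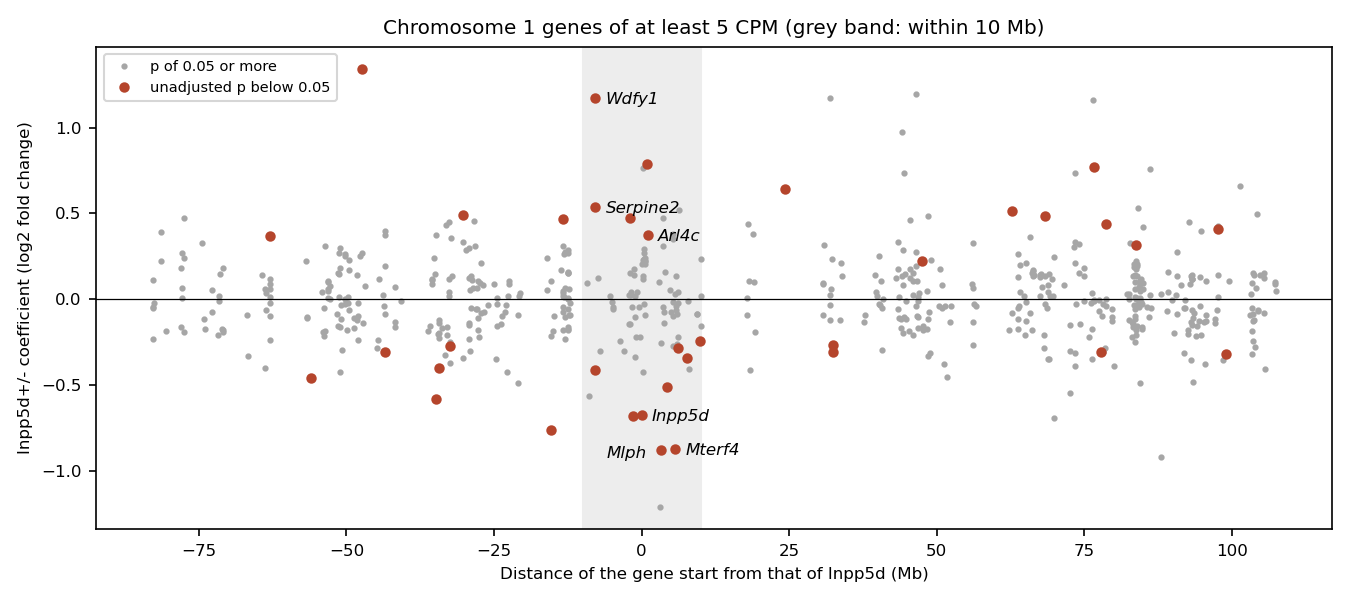
Inpp5d+/- coefficient (log2 fold change) of chromosome 1 genes of at least 5 CPM against the distance of their start from that of Inpp5d (Mb), with red points for an unadjusted p below 0.05 and a grey band over 10 Mb on either side. Red points in the band lie on both sides of 0, among them Serpine2 at 0.54 and Mlph at -0.88.

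Within the band, Mterf4, a mitochondrial ribosome factor, had a coefficient of -0.87. It was at 13.8, 31.7 and 21.1 CPM in NLGF against 11.3, 12.5 and 14 CPM in Inpp5d+/-;NLGF, and at 30.6 and 29.8 CPM in Tyrobp-/-;NLGF against 10.4, 19.5 and 17.4 CPM in the compound libraries. Only NLGF replicate 1 overlapped the heterozygotes. Arl4c, a small GTPase gene 1.05 Mb from Inpp5d, had a coefficient of 0.38 with overlap where Tyrobp was present. Wdfy1 was at 10.8 and 11.9 CPM in Tyrobp-/-;NLGF and at 51.1, 59.5 and 54 CPM in the compound libraries. With Tyrobp present Wdfy1 was at 57.2, 40.5 and 9.8 CPM in NLGF and 35.8, 45.6 and 58.2 CPM in Inpp5d+/-;NLGF. The low levels of Wdfy1 were therefore found in 3 of the 5 Inpp5d+/+ libraries and in none of the Inpp5d+/- libraries. Wdfy1 overlaps Mrpl44 on the other strand, which had a coefficient of -0.41. Armc9 and Atg4b, an autophagy protease gene, stood at -0.68 and -0.29. Wdfy1, Mrpl44, Mterf4, Armc9 and Atg4b were chosen after their values were seen. The count within 10 Mb was 11 without the 2 libraries with most S100a8 and ran from 12 to 16 with each library left out. The part of the inherited flanking region in these values was not tested.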

How the data were processed

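RNA from sorted microglia was sequenced in 11 libraries made with the SMART-Seq v4 kit, which does not mark strand, per the labels' protocols. Per the submitters' processing notes, the builds were GRCm38.p6 and mm10, and the tools listed include STAR 2.7.3a and featureCounts 1.6.4. The authors deposited whole-number read counts per gene, without normalisation, in a table of 55401 rows; its gene length column, per the file headers, was not used. The sources used here do not give the strand setting or the handling of multiply mapped reads, and reads of overlapping genes or near-identical copies cannot be separated. Rows of chromosome M held no counts.

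Groups came from the genotype label, and replicate numbers follow sample order. Since the labels do not tie libraries to animals or litters, a p-value here reflects spread among libraries, which may be technical. Low genes were removed by filterByExpr over the 4 groups (at least 10 counts, 15 in total), leaving 20390 genes, and CPM use TMM-scaled library sizes. The additive model (Inpp5d and Tyrobp genotype) was fitted with edgeR 4.0.16 in R 4.3.3 (glmQLFit, glmQLFTest), with Benjamini-Hochberg adjustment over all tested genes at 0.05. SE came from the test statistic and intervals from its t distribution. A second fit with 1 coefficient per group gave the effects within backgrounds and the interaction. The procedure was also run on simulated counts with known additive changes. These held no interaction and no outlying library, so they do not show how it performs where those occur. A floor of 3 counts was 0.045 to 0.102 CPM and reflects counting error alone, because the kit adds no molecular identifiers and reads are not single molecules.

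Named genes were Inpp5d, Tyrobp, Trem2 and App, the 10 per direction with the smallest p and up to 6 per direction of largest fold without overlap in either background (named symbol, mean of at least 5 CPM), up to 3 per list by p, and up to 3 starting within 2 Mb of Inpp5d. Syk, Cx3cr1, Tmem119, Fos, Axl, Igf1, Clec7a, Gpnmb and Lgals3 were added as well-known members after their values were seen. Genes, the 31 lists and the alternatives were chosen with earlier results of these data known. Alternatives used RLE and upper-quartile scaling, other filters, DESeq2 1.42.0, limma-voom (limma 3.58.1), a surrogate variable (sva 3.50.0), a neutrophil covariate, other models, a threshold of 0.1 and libraries left out. The result of 1 list member is not reported here.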

Additional observations from a re-analysis of the deposited data

How the results depend on the processing

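The additive coefficient called 0 genes in 22 of the 23 alternatives and 10 with DESeq2. The number at an unadjusted p below 0.05 ran from 799 without NLGF replicate 2 to 1236 without NLGF replicate 1. The interaction, with 0 calls in edgeR, had 2 with a filter of at least 1 CPM in 5 libraries, 2 at a threshold of 0.1, 36 with DESeq2 and 0 to 1 with a library left out. The effect with Tyrobp present had 29 calls with DESeq2. The effect with Tyrobp absent, with 2 calls in edgeR, had 1 with no filter, 4 with the 1 CPM filter, 50 with DESeq2, 0 with limma-voom, 0 with a surrogate variable, 1 with neutrophil markers as a covariate, 0 with both S100a8-rich libraries removed and 0 to 1 with a library left out. The cause of these shifts was not tested. The difference in Inpp5d transcript ran from -0.82 to -0.55 with a library left out, and its exact permutation p was 0.05 or more in 9 of those 11 cases, where fewer arrangements are possible. Of 1824 values of 83 named genes under alternatives, 1794 kept their direction and their side of the threshold, 10 were called with DESeq2 and 20 changed sign. With no Tyrobp term Cst7 stood at -0.05, Spp1 at -0.11, Igf1 at -0.30, Mamdc2 at -0.26 and Fzd9 at -0.25. Gpnmb stood at 0.10 with limma-voom and 0.19 with both S100a8-rich libraries removed, and ran from -1.14 to 0.18 with a library left out. The other sign changes were of coefficients near 0. With a library left out App ran from -0.14 to 0.01, Trem2 from -0.08 to 0.03, Syk from -0.24 to 0.01 and Clec7a from -0.21 to 0.18, and Clec7a stood at 0.06 averaged over the backgrounds. No paired analysis was possible because the replicate numbers follow sample order and pair no libraries. Intervals were widest for genes of low counts, with a median SE of 0.32 over all tested genes against 0.18 over those of at least 5 CPM.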
